A study of Homo sapiens with 12 samples.

Results

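Oncofetal genes are active in the fetal liver, mostly fall silent after birth and can return in liver cancer. The 10 examined here were AFP, GPC3, DLK1, IGF2BP1, IGF2BP2, IGF2BP3, LIN28B, SALL4, HMGA2 and GOLM1. They were chosen by name from the biology of hepatocellular carcinoma, with earlier results of these data known. Their probes were found through the RefSeq transcript that the array design gives for each probe. All 10 were on the array, with 16 probes among 50599, and they are 10 of the 20503 genes that could be named. RNA came from HA22T and PLC5, which are both human hepatocellular carcinoma cell lines. Cells of each line were transfected for 48 h with 10 nM of a non-targeting siRNA (siControl) or of a pool of siRNAs against GALNT1 (siGALNT1), an enzyme that starts O-glycosylation by adding GalNAc to proteins. This gave 4 groups of 3 single-color arrays, so every group is 1 cell line under 1 siRNA. The methods give RNA extraction in triplicate and do not say whether the 3 arrays came from separate cultures. The p-values therefore measure the spread between arrays only.

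AFP is a plasma protein that the fetal liver makes alongside albumin, and it serves as a blood marker of liver cancer. GPC3, GOLM1 and DLK1 are proteins of the cell surface or the secretory route. GPC3 is a proteoglycan that binds growth factors, DLK1 is a relative of the Notch ligands from an imprinted gene, and GOLM1 is a Golgi membrane protein that can be shed into serum. IGF2BP1, IGF2BP2 and IGF2BP3 bind and stabilize mRNAs such as those of IGF2 and MYC. LIN28B binds the precursors of the let-7 microRNAs and keeps them from maturing, and the mRNAs of LIN28B, HMGA2 and the IGF2BP family are themselves known let-7 targets. SALL4 is a zinc finger transcription factor of embryonic stem cells and fetal hepatoblasts. HMGA2 is a small protein that bends DNA and shapes chromatin in the embryo.

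The let-7 sequences are shown because LIN28B binds the precursors of these microRNAs, and the printed forms are the mature ones. Of the mature human microRNAs in the RefSeq table (GRCh38.p14), 11 share the let-7 seed, bases 2 to 8 from the 5′ end, which is in capitals. MicroRNAs were not analysed here, so the sequences carry no value of their own. The first is encoded at chr9:94175962-94175983 on the plus strand, with 3 genomic copies in all, the next at chr3:52268336-52268357 on the minus strand and the last at chrX:53556299-53556320 on the minus strand.
let-7a-5p: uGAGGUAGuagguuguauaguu
let-7g-5p: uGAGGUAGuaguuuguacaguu
miR-98-5p: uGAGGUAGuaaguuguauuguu

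Promoter entries were matched for 5 of the 10 genes (AFP, IGF2BP2, IGF2BP3, LIN28B and GOLM1, with 8 entries). Of each entry the 250 bases before the transcription start were read, 5′ to 3′ on the gene's strand. The 3 windows printed here were picked because each holds a motif. Capitals mark TATAAA (the TATA box) and CACGTG (the E-box bound by MYC and other factors), each searched on both strands. None of these motifs overlap in the windows shown. The AFP window (chr4:73435971-73436220, plus strand) is AT-rich with 1 CG dinucleotide. The LIN28B window belongs to the second of its entries (chr6:104956857-104957106, plus strand), and the IGF2BP3 window lies at chr7:23470492-23470741 on the minus strand.
AFP: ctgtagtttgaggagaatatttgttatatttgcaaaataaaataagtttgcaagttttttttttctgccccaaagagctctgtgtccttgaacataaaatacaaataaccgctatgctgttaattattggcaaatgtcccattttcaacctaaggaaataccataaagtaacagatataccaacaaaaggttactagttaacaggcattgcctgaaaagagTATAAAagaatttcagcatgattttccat
LIN28B: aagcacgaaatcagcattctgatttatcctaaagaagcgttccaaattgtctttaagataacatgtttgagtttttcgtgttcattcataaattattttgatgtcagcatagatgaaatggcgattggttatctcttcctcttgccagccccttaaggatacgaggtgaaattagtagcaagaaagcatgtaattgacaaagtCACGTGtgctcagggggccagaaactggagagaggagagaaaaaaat
IGF2BP3: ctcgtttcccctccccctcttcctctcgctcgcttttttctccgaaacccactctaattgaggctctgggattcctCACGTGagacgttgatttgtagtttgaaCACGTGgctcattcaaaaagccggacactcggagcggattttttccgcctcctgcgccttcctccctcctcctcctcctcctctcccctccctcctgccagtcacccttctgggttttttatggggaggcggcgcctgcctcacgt

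The AFP window held 1 TATA box, which begins 29 bases before the start. Over all 35116 promoter windows of this length, 10.7% held the TATA letters. Of the 8 entries, 2 held the TATA letters and 2 held an E-box. The other TATA match was in the second IGF2BP2 entry, on the opposite strand and 222 bases before the start. LIN28B held 1 E-box, 47 bases before the start, and IGF2BP3 held 2, at 174 and 146 bases, whereas 6.34% of all windows held one. The other LIN28B entry had none of the motifs (0), with 33 CG dinucleotides against a median of 11 over all windows. A match describes letters only.

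Signals are given on the log2 scale against the 75th percentile of their own array, so 0 means the brightness of that percentile and negative values are dimmer. Where a gene had more than 1 probe, the brightest with a value in every group was used. Apart from this choice, levels of different probes were set against each other for probes of the same gene and in the marker sums. Per array, 36679 to 48873 of 58717 spots were well above background. Replicates correlated at 0.968 to 0.988. One slide, numbered 1, held all 6 HA22T arrays together with PLC5 replicate 1 of either siRNA, and slide 2 held the other 4 PLC5 arrays. Slide and cell line therefore overlap in part, and values within the shared slide are given where they matter. The targeted gene GALNT1 differed by -5.10 on the log2 scale in HA22T and by -3.72 in PLC5 on its brighter probe, with no overlap between arrays (exact permutation p = 0.1 in each line, the smallest that 3 arrays against 3 allow). In limma this probe had an adjusted p of 0.0708 in HA22T and of 1.00 in PLC5, and the dimmer GALNT1 probe had -4.75 in HA22T (adjusted p = 0.0305) and -3.03 in PLC5 (adjusted p = 1.00). The hepatocyte, mesenchymal and other marker lists of the 2 lines are given after the oncofetal genes.

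The comparison of HA22T with PLC5 under siControl asks how the oncofetal program differs between the lines before GALNT1 is lowered. Of the 10 genes, 6 passed an adjusted p of 0.05 in limma, with GPC3, LIN28B, IGF2BP1 and SALL4 lower in HA22T and IGF2BP3 and GOLM1 higher. AFP, DLK1, IGF2BP2 and HMGA2 did not pass. Over all 38011 probes tested, 22.0% passed, 11.0% as higher in HA22T and 11.0% as lower. All 10 genes passed the filter on dim probes in this comparison. The median absolute difference was 1.501 over the 10 genes and 0.51 over all probes tested, and the signed medians were -0.01 and 0.04. In 8 of the 10 genes the HA22T arrays did not overlap the PLC5 arrays, against 42.4% of all probes tested. The 10 genes were chosen with earlier results of these data known, so these contrasts with all probes are descriptions only.

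**Figure D1:**
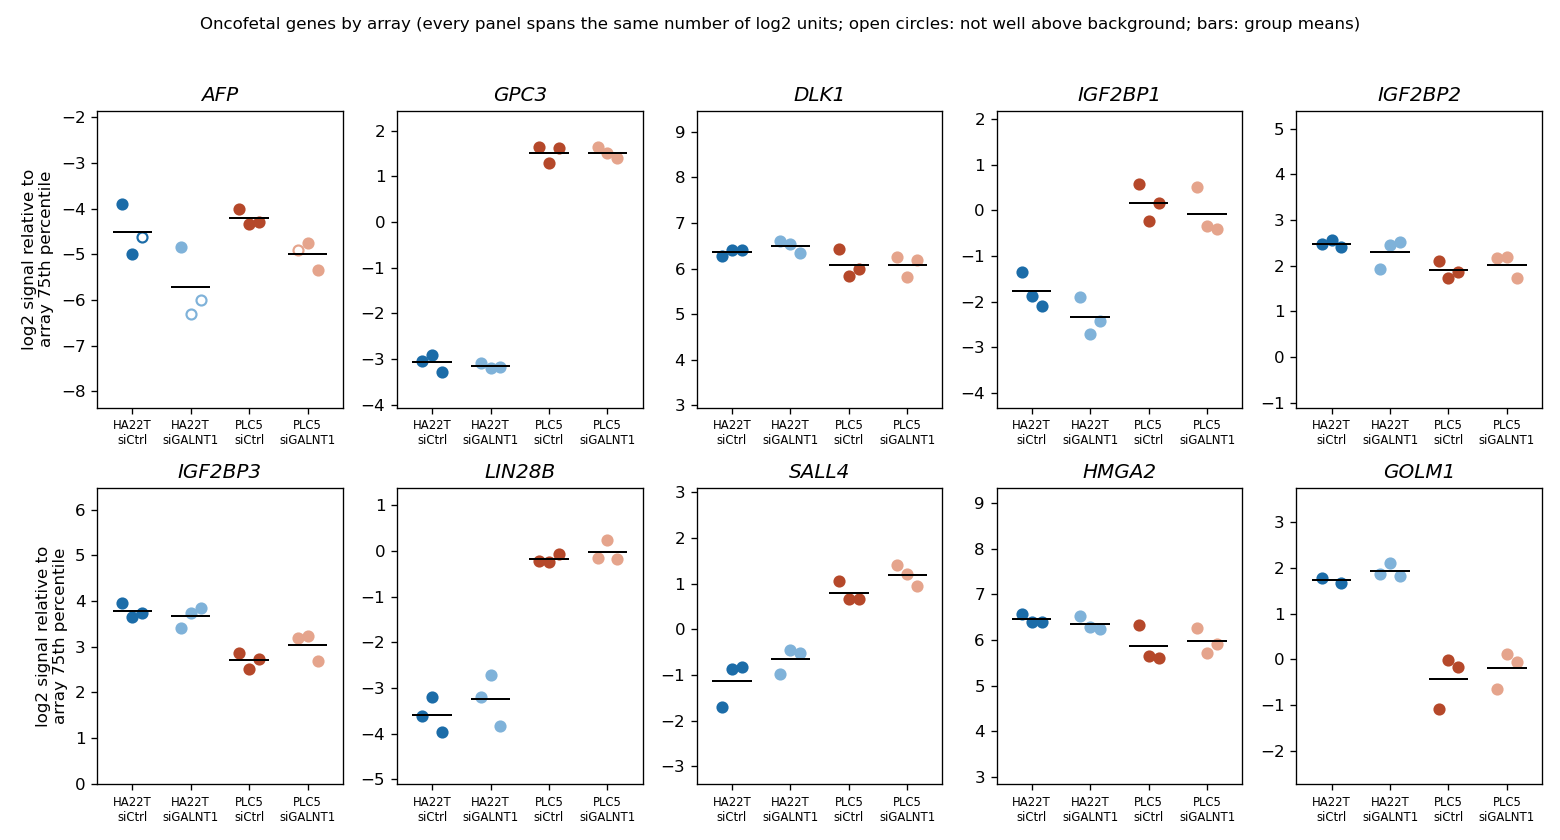
Log2 signal of each oncofetal gene on every array, relative to the 75th percentile of the array, in 4 groups of 3 arrays (GOLM1 has 2 values in HA22T siControl). Points are arrays, bars are group means, open circles are spots not well above background, and every panel spans the same range of log2 units. GPC3 and LIN28B separate the lines most widely, whereas AFP and DLK1 overlap between the lines with siControl. HMGA2 (0.59) and IGF2BP2 (0.58) lie slightly higher in HA22T with siControl.

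The surface and secreted proteins showed the widest range. GPC3 had log2 values of -3.04, -2.91 and -3.28 in HA22T siControl and of 1.65, 1.29 and 1.61 in PLC5 siControl. With siGALNT1 the values were -3.09, -3.19 and -3.18 in HA22T and 1.63, 1.51 and 1.40 in PLC5. The lines were far apart under either siRNA, and the siRNA groups of each line lay on top of each other. Under siControl the GPC3 mean was -3.08 ± 0.19 (SD, n = 3) for HA22T and 1.52 ± 0.20 (SD, n = 3) for PLC5, a difference of -4.59 on the log2 scale or 24.1-fold (standard error 0.22, adjusted p = 1.81e-07 from limma). A second, brighter GPC3 probe had a difference of -2.58 (standard error 0.26), 5.98-fold, with values of -0.02 and -0.01 on 2 HA22T siControl arrays and between 2.49 and 2.71 in PLC5 siControl. The probes had the same direction and different sizes. All 3 HA22T siGALNT1 spots of the second probe were flagged as non-uniform and left out. With flagged spots kept its difference was -2.24 (adjusted p = 0.000615 from limma) with siControl and -1.59 (adjusted p = 0.00609 from limma) with siGALNT1.

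GOLM1 went the other way. Its values were 1.79 and 1.66 in HA22T siControl, where the replicate 2 spot was flagged, and -1.09, -0.03 and -0.16 in PLC5 siControl. With siGALNT1 they were 1.87, 2.11 and 1.82 in HA22T and -0.65, 0.13 and -0.05 in PLC5. Every HA22T array was above every PLC5 array. The difference was 2.15 on the log2 scale, 4.44-fold (standard error 0.37, 2 arrays against 3, adjusted p = 0.00193 from limma). The methods' t-test, so called although the methods name several tests and tie none of them to the arrays, gave an adjusted p of 0.0733, and with flagged spots left out the probe cannot be tested where all 6 arrays must be well above background. On the shared slide alone the difference of this probe was 2.82. The other GOLM1 probe had a value on all arrays and a difference of 3.31 (standard error 0.48, adjusted p = 0.000424 from limma). Its value on PLC5 siControl replicate 1 (-4.79) was not well above background, so the size of 3.31 rests partly on a dim spot.

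DLK1 was bright in both lines on its brighter probe. HA22T siControl arrays had log2 values of 6.27, 6.40 and 6.39, and PLC5 siControl arrays had 6.43, 5.85 and 5.98. The siGALNT1 values were 6.60, 6.54 and 6.34 in HA22T and 6.26, 5.81 and 6.19 in PLC5. The highest PLC5 siControl array, which shared the slide with HA22T, lay above all HA22T siControl arrays and the 2 on the other slide lay below them. The DLK1 difference was 0.27 (95% confidence interval -0.26 to 0.80, adjusted p = 0.484 from limma) with siControl, and it was -0.09 after quantile normalization. On the shared slide alone it was -0.07. The second DLK1 probe was much dimmer, with means of -2.99 in HA22T siControl and -3.55 in PLC5 siControl. A high level of DLK1 therefore rests on the brighter probe alone. The second probe had a difference of 0.55 with siControl (adjusted p = 0.212 from limma) and of 1.05 with siGALNT1 (adjusted p = 0.0217 from limma). The probes thus did not give the same call in the latter comparison.

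AFP was dim in both lines. The HA22T siControl values were -3.91, -4.996 and -4.62, the last of them not well above background, and the PLC5 siControl values were -4.01, -4.34 and -4.28. These groups overlapped, since the highest value of all came from HA22T. The difference was -0.30 (95% confidence interval -1.18 to 0.58, adjusted p = 0.659 from limma), so a gap of up to 1.18 in favor of PLC5 lies within the interval. The shared slide alone gave -0.50. AFP has 1 probe on the array. A probe for the neighboring gene ALB, the adult counterpart of AFP, had -4.37 ± 0.45 (SD, n = 3) under siControl in HA22T against -0.41 ± 0.35 (SD, n = 3) in PLC5, a difference of -3.96 (standard error 0.47, adjusted p = 0.000101 from limma).

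Among the RNA-binding proteins, LIN28B differed most. Its values were -3.61, -3.20 and -3.97 in HA22T siControl and -0.23, -0.25 and -0.07 in PLC5 siControl. With siGALNT1 they were -3.20, -2.72 and -3.83 in HA22T and -0.16, 0.24 and -0.18 in PLC5. The HA22T arrays were all far below the PLC5 arrays, although all 6 were well above background. LIN28B had a difference of -3.41 on the log2 scale with siControl, 10.6-fold (standard error 0.32, adjusted p = 1.57e-05 from limma). The shared slide alone gave -3.36.

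The IGF2BP family did not move as a block. IGF2BP1 had log2 values of -1.34, -1.86 and -2.10 in HA22T siControl and of 0.57, -0.22 and 0.17 in PLC5 siControl. The corresponding siGALNT1 values were -1.89, -2.71 and -2.42 in HA22T and 0.52, -0.34 and -0.41 in PLC5. IGF2BP1 was lower on every HA22T array, with a difference of -1.94 under siControl, 3.84-fold (standard error 0.36, adjusted p = 0.00216 from limma). In contrast, IGF2BP3 had 3.96, 3.65 and 3.74 in HA22T siControl and 2.86, 2.52 and 2.74 in PLC5 siControl. Its siGALNT1 values were 3.41, 3.74 and 3.85 in HA22T and 3.20, 3.23 and 2.69 in PLC5. IGF2BP3 was higher on every HA22T array, and the gap was narrower with siGALNT1. It came to 1.07 with siControl, 2.10-fold (standard error 0.25, adjusted p = 0.00880 from limma), and to 0.92 with the slide as a block (adjusted p = 0.0553 from limma), which ends the call.

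IGF2BP2 had values of 2.47, 2.56 and 2.41 in HA22T siControl and of 2.10, 1.73 and 1.86 in PLC5 siControl. With siGALNT1 the values were 1.92, 2.45 and 2.52 in HA22T and 2.16, 2.19 and 1.72 in PLC5. The lines were separate under siControl and overlapped under siGALNT1. The difference was 0.58 with siControl (95% confidence interval 0.03 to 1.13, adjusted p = 0.132 from limma, exact permutation p = 0.1), and the methods' t-test gave an adjusted p of 0.0474. On the shared slide alone it was 0.38. Its other probe gave 0.06 (adjusted p = 0.901 from limma), so the 2 probes disagreed in size.

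SALL4, the transcription factor, had log2 values of -1.71, -0.88 and -0.81 in HA22T siControl and of 1.06, 0.65 and 0.66 in PLC5 siControl. With siGALNT1 the values were -0.99, -0.46 and -0.51 in HA22T and 1.42, 1.22 and 0.94 in PLC5. HA22T was below PLC5 throughout, with a difference of -1.93 under siControl, 3.80-fold (standard error 0.30, adjusted p = 0.000715 from limma). On its brightest probe HMGA2, the chromatin protein, had 6.57, 6.39 and 6.41 in HA22T siControl and 6.33, 5.65 and 5.61 in PLC5 siControl. Its siGALNT1 values were 6.52, 6.28 and 6.25 in HA22T and 6.27, 5.72 and 5.92 in PLC5. The PLC5 array on the shared slide came close to the HA22T arrays and those on the other slide were lower. The HMGA2 difference was 0.59 (95% confidence interval 0.01 to 1.17, adjusted p = 0.143 from limma), and on the shared slide it was 0.13. The other HMGA2 probes gave -0.46 and -0.06 with siControl, so the probes of this gene had opposite signs and none passed. These other probes were far dimmer, with means of -0.90 and -1.16 in HA22T siControl and -0.45 and -1.10 in PLC5 siControl.

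The lines were also compared under siGALNT1, on other arrays of the same lines and slides. Of the 10 genes, 5 passed, against 22.9% of all 36741 probes tested. GPC3 (-4.67, adjusted p = 1.69e-07), LIN28B (-3.22, adjusted p = 2.58e-05), IGF2BP1 (-2.26, adjusted p = 0.000796) and SALL4 (-1.85, adjusted p = 0.00100) were lower in HA22T and GOLM1 (2.13, adjusted p = 0.00105) was higher, all from limma. IGF2BP3 had a difference of 0.63 (adjusted p = 0.0916 from limma) and did not pass. The direct test of IGF2BP3, which compares its siGALNT1 change between the lines, gave -0.44 (95% confidence interval -1.21 to 0.32, adjusted p = 0.989 from limma) and did not pass either. AFP had -0.72 with siGALNT1 (adjusted p = 0.228 from limma), and among the alternatives tried it passed in 1, the one without HA22T siGALNT1 replicate 1 (-1.16, adjusted p = 0.0405 from limma). DLK1 had 0.41 (adjusted p = 0.252), HMGA2 had 0.38 (adjusted p = 0.335) and IGF2BP2 had 0.28 (adjusted p = 0.470), all from limma. On the shared slide these were 0.24, 0.08 and 0.14.

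**Figure D2:**
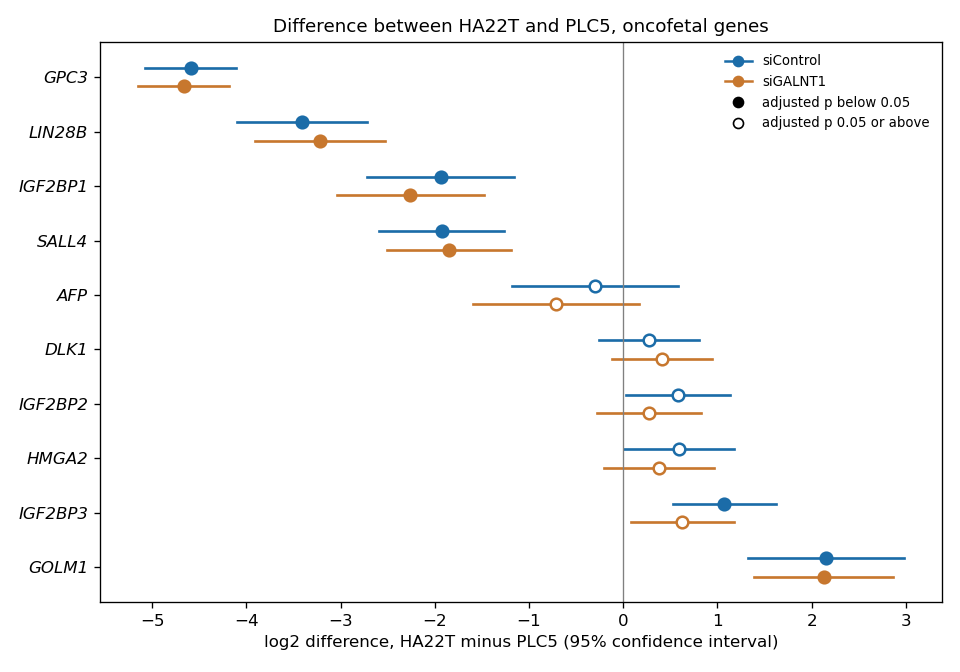
Log2 difference of HA22T minus PLC5 for each oncofetal gene with siControl and with siGALNT1, with 95% confidence intervals from limma. Filled points passed an adjusted p of 0.05. GPC3, LIN28B, IGF2BP1 and SALL4 lie left of 0 and GOLM1 right of it with either siRNA, and IGF2BP3 is filled only with siControl (1.07 against 0.63).

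No oncofetal gene passed the threshold for the change with siGALNT1, which GALNT1 itself missed in PLC5 on both probes and in HA22T on its brighter probe, so a count of 0 here says little. In HA22T 0 of the 10 genes passed in limma, and before adjustment 1 (AFP) was below 0.05. In PLC5 0 of the 10 passed and 0 were below 0.05 before adjustment, and the methods' t-test called 0 in each line after adjustment. Over all probes tested, 0.00275% passed in HA22T (1 of 36327, the dimmer GALNT1 probe) and 0% in PLC5 (0 of 38070), and before adjustment 2.99% (1086) and 1.33% (508) were below 0.05. With 3 arrays a group, the intervals still allow moderate changes. For GPC3 the change was -0.08 in HA22T (95% confidence interval -0.56 to 0.40) and -0.002 in PLC5 (-0.48 to 0.48). The LIN28B change was 0.34 in HA22T (-0.35 to 1.03) and 0.15 in PLC5 (-0.54 to 0.84). SALL4 had 0.48 in HA22T (-0.18 to 1.14) and 0.40 in PLC5 (-0.26 to 1.06), and IGF2BP1 had -0.57 (-1.35 to 0.21) and -0.25 (-1.03 to 0.53). The other members apart from AFP lay between -0.18 and 0.33 in both lines. Same-numbered HA22T arrays deviated together, so differences within the numbered pairs were read as well, and 5 of the 10 genes had the same sign in all 3 pairs, against 30.4% of all probes tested. These were AFP (-0.92, -1.31 and -1.38), IGF2BP1 (-0.55, -0.84 and -0.32), SALL4 (0.72, 0.42 and 0.31), LIN28B (0.40, 0.48 and 0.14) and HMGA2 (-0.05, -0.11 and -0.16), none of which passed with the pairs as a block.

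AFP had the largest change of the 10 genes. Its values were -4.83, -6.31 and -5.999 in HA22T siGALNT1, the last 2 not well above background, and -4.90, -4.75 and -5.34 in PLC5 siGALNT1, the first not well above background. In PLC5 every siGALNT1 array was below every siControl array, whereas in HA22T siGALNT1 replicate 1 lay above siControl replicate 2 although AFP was lower with siGALNT1 within every numbered pair. The AFP change was -1.20 in HA22T (95% confidence interval -2.08 to -0.32, adjusted p = 1.00 from limma, exact permutation p = 0.2) and -0.79 in PLC5 (-1.67 to 0.09, adjusted p = 1.00 from limma, exact permutation p = 0.1). After normexp background correction these values shrank to -0.25 and -0.28. AFP was the sole gene of the 10 without overlap in PLC5, where 5.94% of all probes tested had none. GOLM1 was the sole one in HA22T, where 12.0% had none, with a change of 0.21 over 2 siControl arrays (exact permutation p = 0.2).

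**Figure D3:**
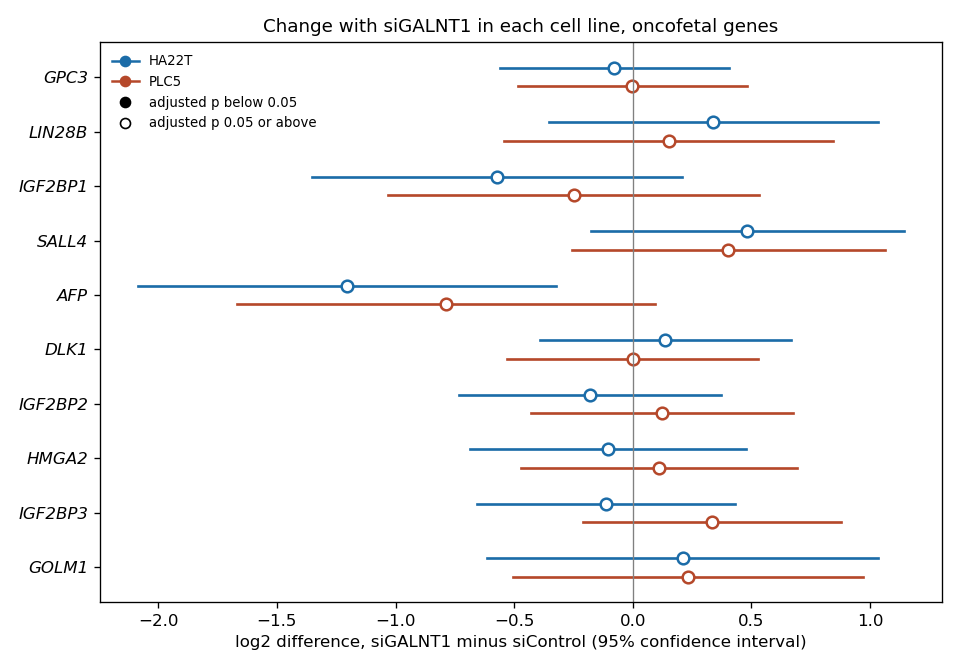
Log2 difference of siGALNT1 minus siControl for each oncofetal gene in HA22T and in PLC5, with 95% confidence intervals from limma. No point is filled, since none had an adjusted p below 0.05. AFP lies farthest from 0, at -1.20 in HA22T and -0.79 in PLC5, and the other genes lie between -0.57 and 0.48.

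The change with siGALNT1 was also compared between the lines. None of the 10 genes (0) passed in limma, and 0 were below 0.05 before adjustment. Of all 39100 probes tested 0% passed, and 952 were below 0.05 before adjustment. The differences of change ran from -0.44 for IGF2BP3 to 0.19 for LIN28B.

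Genes related to the 10 by family or pathway were examined in the line comparison under siControl. Among 15 relatives, 11 were bright enough to be tested, of which 1 was higher in HA22T, 3 were lower and 7 did not pass. The median of the 11 was -0.84, beside 0.04 over all probes tested, of which 22.0% passed. GPC1, a glypican like GPC3, had 4.20 ± 0.32 (SD, n = 3) in HA22T and 1.81 ± 0.26 (SD, n = 3) in PLC5, a difference of 2.39 (adjusted p = 9.25e-05 from limma). GPC6, another glypican, went with GPC3 (-3.30, adjusted p = 0.000535 from limma; -3.01 on its other probe). SALL1, a family member of SALL4, was not well above background on any HA22T siControl array and had -2.50 ± 0.43 (SD, n = 3) in PLC5, at least 8.29-fold higher there (adjusted p = 9.27e-06 from limma). Such bounds divide the brighter group's mean by that of the dim group. In the dim group each array enters with its own signal or its lowest signal that was well above background, whichever is greater. That lowest signal is not a strict limit, since some spots above it were not well above background, so the bounds are approximate. An adjusted p beside a bound belongs to the unbounded limma difference. Probes with both entered the test through their PLC5 arrays alone, so these p-values are descriptions only.

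The other relatives did not pass or were too dim. GPC4 (-1.69), GPC2 (-0.84), GPC5 (-0.30), GOLM2 (-0.95), DLK2 (-0.45), SALL3 (-0.16) and HMGA1 (0.17) had adjusted p between 0.0966 and 0.820 in limma. SALL2 was not well above background in HA22T and was well above it on 2 PLC5 arrays, which bounds it at 2.59-fold or more higher in PLC5 without a test. AFM, a neighbor of AFP, GC, the vitamin D binding protein, and LIN28A, the paralog of LIN28B, were too dim to be tested. LIN28A was not well above background on any siControl array of either line, in contrast to LIN28B.

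Of 16 regulators of AFP and other fetal liver genes, 1 was higher in HA22T and 5 were lower, with a median of -0.37. FOXA2, a pioneer factor of the liver, was lower, at -5.43 ± 0.47 (SD, n = 3) in HA22T and 1.42 ± 0.23 (SD, n = 3) in PLC5, a difference of -6.85 (adjusted p = 1.19e-06 from limma), with 1 of the 3 HA22T spots well above background. CEBPA, a factor of mature hepatocytes (-4.29, adjusted p = 2.41e-05), HNF4A, a nuclear receptor of hepatocytes (-3.24, adjusted p = 0.000211), and NR5A2, an activator of AFP (-1.72, adjusted p = 0.00333), were lower too in limma. ZHX2, a repressor of AFP and GPC3 in the adult liver, was lower in HA22T (-2.44, adjusted p = 3.61e-05 from limma), and its paralog ZHX1 was higher (1.97, adjusted p = 3.53e-05 from limma). ZBTB20 (0.82) and ZFHX3 (0.95), further repressors of AFP, had adjusted p of 0.513 and 0.0715 in limma. A second NR5A2 probe was not well above background on any HA22T siControl array. It was at least 6.94-fold higher in PLC5 (adjusted p = 3.70e-05 from limma), so the size for NR5A2 depended on the probe.

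In the LIN28 and let-7 pathway, 22 of 24 genes were tested, with 3 higher in HA22T, 4 lower, 15 that did not pass and a median of 0.19. TRIM71, a stem cell protein and let-7 target, was not well above background on the HA22T siControl arrays and was at least 6.79-fold higher in PLC5 (adjusted p = 2.71e-05 from limma). ARID3B (-2.93, adjusted p = 7.33e-05) and ARID3A (-2.46, adjusted p = 9.64e-05), DNA-binding proteins of the same family, were lower in HA22T in limma. MYC (1.84, adjusted p = 0.00202) and DICER1, which cuts microRNA precursors (1.49, adjusted p = 0.00262), were among the higher in limma. IGF2, an mRNA bound by the IGF2BP proteins, had -2.31 ± 0.17 (SD, n = 3) in HA22T and -2.58 ± 0.27 (SD, n = 3) in PLC5 and did not pass (0.27, adjusted p = 0.552 from limma).

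Of 10 imprinted fetal genes, 2 were higher in HA22T and 2 were lower, with a median of 0.24. MEST, a fetal mesoderm enzyme, had 2.12 ± 0.20 (SD, n = 3) in HA22T and -4.66 ± 0.62 (SD, n = 3) in PLC5, a difference of 6.78 (adjusted p = 4.60e-07 from limma), with 2 of the 3 PLC5 spots well above background, and PLAGL1 was higher as well (1.47, adjusted p = 0.00168 from limma). PEG10, a retrotransposon-derived gene of placenta and liver cancer (-3.01, adjusted p = 0.000311), and the noncoding H19 (-1.29, adjusted p = 0.0331) were lower in limma. Of 12 partners and targets of SALL4, 11 were tested and 3 were higher, among them MTA1 (1.14, adjusted p = 0.00831) and HDAC1 (1.06, adjusted p = 0.0145), both from limma, which are subunits of the NuRD deacetylase complex. None (0) was lower, and the median was 0.71.

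Among 15 other liver cancer genes tested, 4 were higher in HA22T and 7 were lower, with a median of 0.67. GLUL, glutamine synthetase and a target of beta-catenin, was not well above background on any HA22T siControl array and was at least 259.7-fold higher in PLC5 (adjusted p = 8.42e-08 from limma). LGR5, a Wnt receptor component, was at least 9.13-fold higher in PLC5 (adjusted p = 3.92e-05 from limma). CD24 (-3.22, adjusted p = 0.000331), MDK, a heparin-binding growth factor (-2.51, adjusted p = 0.000481), and ROBO1 (-2.35, adjusted p = 0.000109) were lower in HA22T, and TOP2A of dividing cells was higher (1.79, adjusted p = 0.000678), all from limma. For some related genes the call depended on the probe. A dimmer probe of PEG3 had a difference of -2.71 (adjusted p = 0.0119 from limma), whereas the brightest probe of this gene did not pass (-0.13). Across the lists, 0 genes passed for the change with siGALNT1 in either line.

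**Figure D4:**
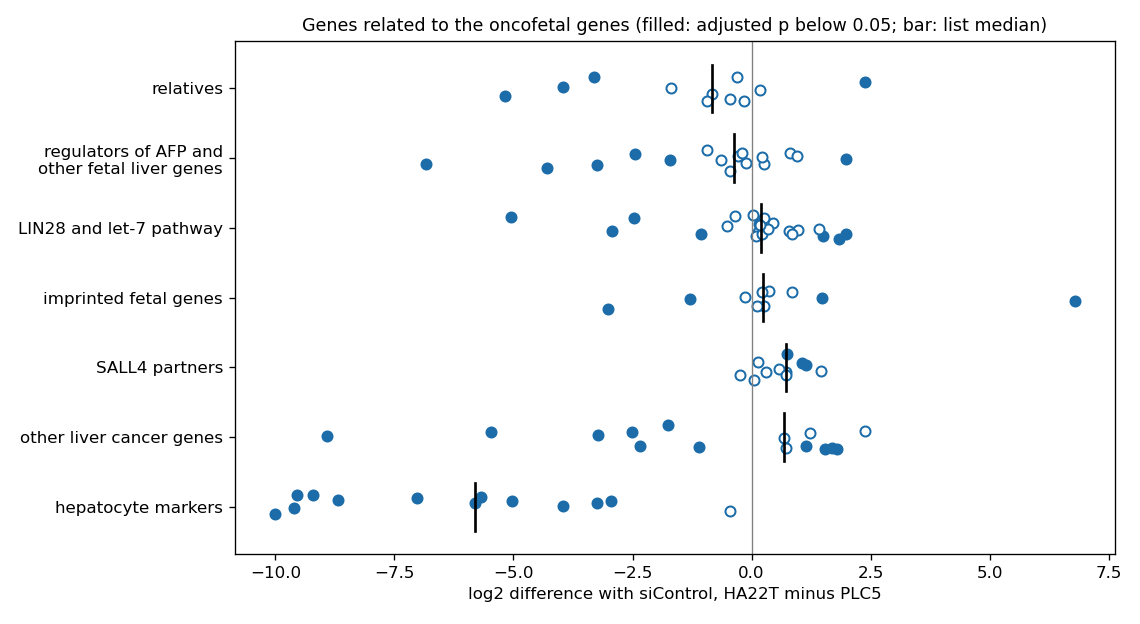
Log2 difference of HA22T minus PLC5 with siControl for the genes of each related list and for hepatocyte markers. Each point is a tested gene, filled where the adjusted p in limma was below 0.05, and bars are list medians. Hepatocyte markers lie to the left with a median of -5.81, whereas the other lists have genes on both sides of 0 or near it.

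Some of the marker lists differed between the cell lines as well. Of 13 hepatocyte markers, 12 were lower in HA22T with siControl and 0 higher, with a median of -5.81, and their summed signal in log2 units was 2.75 to 3.21 on the HA22T arrays and 7.71 to 8.37 on the PLC5 arrays. Between 5 and 12 of the 13 were well above background on the HA22T arrays and all 13 on the PLC5 arrays. Of 8 mesenchymal markers listed, 4 were tested, of which 2 were higher in HA22T and 2 did not pass, with a median of 1.302. Their summed signal was 5.78 to 6.45 in HA22T and 1.53 to 2.07 in PLC5, with VIM (5.54, adjusted p = 4.54e-06 from limma) and ZEB1 (2.01, adjusted p = 0.000525 from limma) higher in HA22T. Epithelial sums (6.99 to 7.74 and 6.22 to 7.49) and leukocyte sums (4.59 to 6.04 and 4.29 to 5.52) overlapped between the lines. Of 3 epithelial markers tested 0 passed. Of 4 leukocyte markers tested 1 was higher in HA22T, 1 was lower and 2 did not pass. All 4 were well above background on every array, and in HA22T their sums exceeded those of the hepatocyte markers. Each gene entered by its brightest probe, and probes of a gene can differ widely. Other PTPRC probes had HA22T siControl means of 2.46, -4.85 and -7.45. Whether the bright signals are specific was not tested, so the leukocyte sums are not read as leukocyte content. The endothelial sums were -1.27 to -0.55 in HA22T and 2.02 to 2.56 in PLC5, and of 3 endothelial markers tested 1, PECAM1, was lower in HA22T (-5.41) and 2 did not pass, with a median of -0.32. The part of these markers in the differences of the oncofetal genes was not tested, and in such bulk RNA fewer cells with a transcript and less of it per cell cannot be told apart.

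The genes most like GPC3 over the 12 arrays, by Pearson correlation of log2 values, were APOB (r = 0.999), AKAP12 (r = 0.999) and ALDH1A1 (r = 0.999). RHPN2 (r = 0.996), HORMAD1 (r = 0.996) and KPNA7 (r = 0.995) were most like LIN28B. The 12 arrays form 2 cell lines, and any gene with a wide gap in the same direction reaches such a value.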

How the data were processed

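The 10 genes and the related lists were chosen with earlier results of these data known. Arrays were labeled cDNA on Agilent SurePrint G3 Human designs. The authors deposited Feature Extraction intensity values (processed signal, background already subtracted, with version 10.5.1.1 per the submitters' processing notes) and a table of scaled log2 values, used here as an alternative. The design was annotated on hg19, and names came from RefSeq GRCh38.p14, which matched 28174 of 50599 probes.

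Control and non-uniform spots were left out, and log2 processed signal was set relative to each array's 75th percentile. Repeated spots were averaged per probe. All 4 groups entered 1 fit with limma 3.58.1 (lmFit, eBayes) in R 4.3.3 without covariates, on all probes. Tests covered probes that stood well above background on 3 or more of the 6 arrays compared, with Benjamini-Hochberg adjustment and a threshold of 0.05. Exact permutation tests were two-sided. The fit was tested on simulated data. Population outliers were kept, and array number limits precision. The methods' t-test is Student's, on the same values, a choice made here since the methods tie no test to the arrays.

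Named genes are the 10, all relatives, GALNT1, up to 6 genes of each other list with the largest difference among those that passed, and the 3 genes most alike for GPC3 and LIN28B. Marker genes, ZBTB20, ZFHX3, IGF2 and PEG3 were named after their values were seen. A few genes of the lists that the rule would name are not reported here. Same-numbered siControl and siGALNT1 arrays deviated together in HA22T (r = 0.550, 0.403 and 0.430, which is pairing read from the values), and in PLC5 not throughout (0.706, -0.02 and 0.164). Differences within the HA22T pairs were added after the values were seen. The alternatives were normexp (offset 50, on median spot signals), quantile normalization, median scaling, the deposited table, other filters and priors, flagged spots kept, slide or replicate number as a block, the 2 groups alone, the t-test, the mean over probes, and each array left out.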

Additional observations from a re-analysis of the deposited data

How the results depend on the processing

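The counts of called genes stayed within 1.5 times under every alternative: 5 to 6 with siControl, 5 to 6 with siGALNT1 and 0 for each change with siGALNT1 and for its difference between lines. Called probes ranged from 5763 to 9661 around 8368, and called related genes from 27 to 41 around 35. With the replicate number as a block, 6 and 5 oncofetal genes were called, with 0 for the change with siGALNT1, so the pairing changed no such count. Single arrays left out gave 6 genes with siControl throughout. Small differences that did not pass changed sign, and the cause was not tested. Between lines, DLK1 was -0.091 under quantile normalization (siControl) and HMGA2 was -0.0052 with the slide as a block (siGALNT1). For the change with siGALNT1 in HA22T, GPC3 was 0.053 after normexp and HMGA2 was 0.0052 as the mean over probes. In PLC5, GPC3 was 0.014 after quantile normalization, 0.011 after median scaling and 0.00870 in the deposited table, DLK1 was 0.012 and 0.00989 under the latter pair, and HMGA2 was -0.013 as the mean over probes. With single arrays left out, the HA22T change ranged from -0.179 to 0.0074 for GPC3, from -0.292 to 0.0068 for IGF2BP2 and from -0.203 to 0.016 for IGF2BP3, and the PLC5 change from -0.116 to 0.064 for GPC3, from -0.121 to 0.171 for DLK1, from -0.041 to 0.343 for HMGA2 and from -0.098 to 0.465 for GOLM1. The number of arrays and, for AFP, signal near background limit the precision.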
